A study of Mus musculus with 6 samples.

Results

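The genes described here are 34 enzymes and carriers of fatty acid synthesis and oxidation, chosen by name, out of 53278 genes in the table. All 34 symbols were found. RNA-seq was carried out on type-2 innate lymphoid cells (ILC2s) sorted from visceral adipose tissue of C57BL/6 mice aged 8 weeks, and asked how the ILC2 transcriptome responded to engagement of GITR, a costimulatory receptor of the TNF receptor family. Every mouse had received 3 intraperitoneal injections of 1 µg recombinant IL-33, so isotype control cells and DTA-1 cells were both activated, and both were cultured with IL-2 and IL-7, each at 10 ng/mL. Cells of the DTA-1 group received 5 µg/mL of the agonistic anti-GITR antibody DTA-1. Those of the other group received the isotype control antibody, and each group had 3 libraries. The sample titles name this control isotype, whereas the headers of its count columns say PBS. The labels give a culture of 48 h, whereas the results text of the study gives a shorter time. The cells were sorted as lineage-negative cells positive for CD45, ST2 and CD117. No label says whether the 3 libraries of a group came from separate mice or cultures, so p-values measure the spread between these samples, which may be technical.

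Fatty acids are built in the cytosol and burnt in mitochondria and peroxisomes. For synthesis, ATP-citrate lyase makes acetyl-CoA from citrate, acetyl-CoA carboxylase makes malonyl-CoA and fatty acid synthase joins these units into palmitate, which elongases and desaturases then modify. For oxidation, an acyl-CoA synthetase activates the fatty acid, the carnitine shuttle carries it into the mitochondrion, and the enzymes of beta-oxidation remove acetyl-CoA units in repeated rounds. Lipases release fatty acids from stored or circulating triglyceride, and ILC2s of adipose tissue live among the cells that store most of it.

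With all 6 libraries, none of these genes passed the test between DTA-1 and isotype control, and most well expressed ones were bounded to small changes. Of the 33 that passed the filter on low counts, 16 were higher and 17 were lower in DTA-1, or 12 and 21 when the libraries were scaled by total counts. Their median log2 fold change was -0.02, against -0.01 over all 14361 tested genes. The median size of the change without its sign was 0.12 for both. With total counts the median log2 fold change was -0.06 for members and -0.04 for all tested genes. A gene was called at an adjusted p under 0.05 and at least 1.5-fold (quasi-likelihood test of edgeR, p adjusted by Benjamini-Hochberg over all tested genes). By this rule 0 of the 33 were called, as were 0.0% of all tested genes. DESeq2 called 0 of the 34 members and 25 genes (0.152%) of those to which it gave an adjusted p. At an unadjusted p under 0.05, edgeR listed 3 of the 33, all higher in DTA-1 (Acsl4, Fasn and Scd2). Over all tested genes the share was 7.22%, made up of 4.11% higher and 3.11% lower. DESeq2 listed 3 of the 34 members, against 4.88% of all genes to which it gave a p. At an unadjusted p under 0.05 and 1.5-fold, 0 of the members and 2.35% of all tested genes were listed. In bulk RNA, fewer cells of a type and less RNA per cell cannot be told apart.

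The intervals show how large a change these libraries could have missed, and were computed with all 6 libraries only. Without DTA-1 replicate 1, which stood apart as described below, the median size of the change was 0.16 for members and 0.17 for all tested genes. Acsl4 then had a log2 fold change of 0.45 (SE 0.09) and Mgll -0.34 (SE 0.13). The bounds that follow do not cover that setting. For 27 of the 33 members (81.8%) the whole 95% interval lay within 1.5-fold in either direction, compared with 58.9% of all tested genes. Precision followed expression: among genes with a mean of at least 10 normalized counts, 27 of 28 members (96.4%) and 92.3% of all genes had such an interval, a limit on level that was chosen after the values were seen. Normalized counts are CPM values, that is counts relative to the library total, after TMM scaling of the libraries. The 6 members with wider intervals were Acaca, Acacb, Scd2, Elovl6, Fads2 and Lpl.

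**Figure D1:**
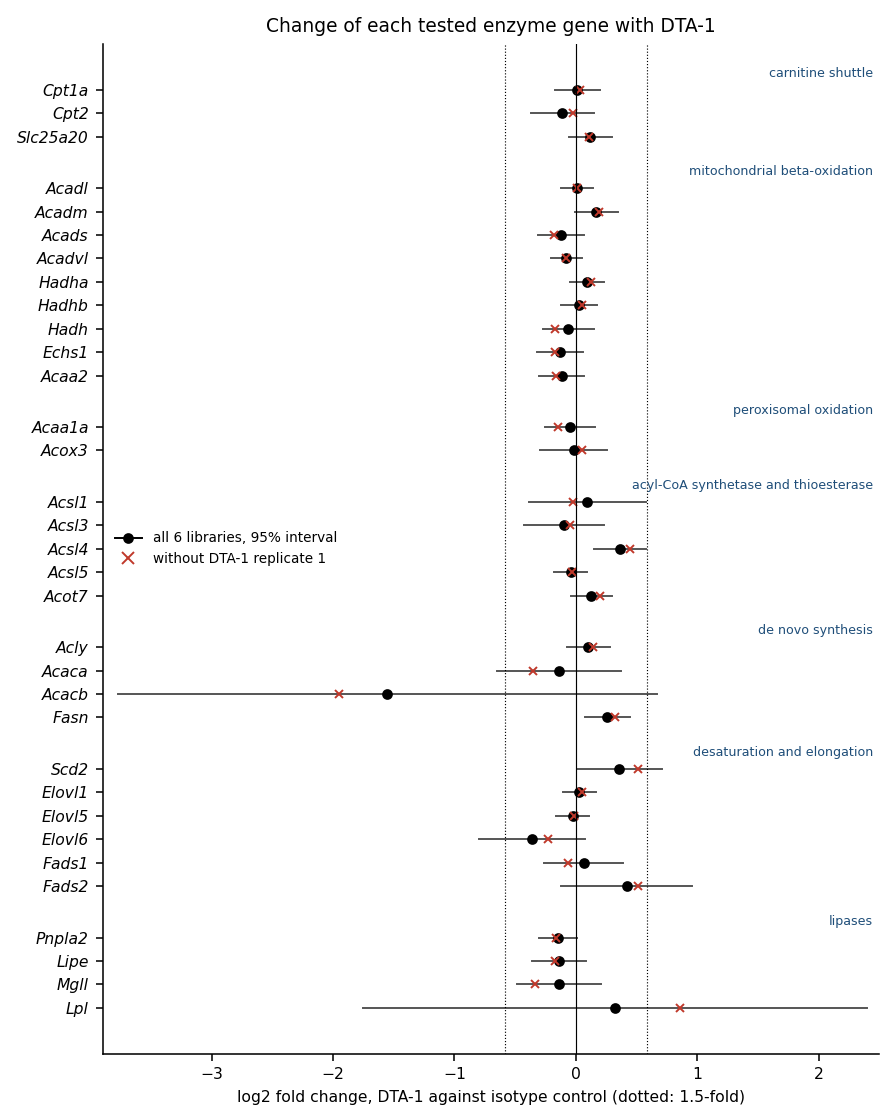
log2 fold change of the 33 tested enzyme genes, DTA-1 against isotype control (x axis), grouped by role. Black points with lines are the estimates from all 6 libraries with their 95% intervals. Red crosses are the estimates without DTA-1 replicate 1, and dotted lines mark 1.5-fold. The intervals, not adjusted for the number of genes, exclude 0 for Acsl4, Fasn and, narrowly, Scd2, none of which passed the adjusted test. Of the 33 intervals, 27 stay between the dotted lines.

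The total count per library was between 30569351 and 35131329. The library labelled DTA-1 replicate 1 stood apart from its group. Over genes, its counts differed from those of the 3 isotype control libraries by a chi-square per degree of freedom of 9.64 to 11.3, and from DTA-1 replicates 2 and 3 by 27.1 and 28.2, whereas the latter pair differed by 11.4. The genes Il5, Il13 and Areg, of the ILC2 marker list and picked here after their values were seen, had 5627, 73.7 and 188 normalized counts in it. The isotype control libraries held 5063 to 5493, 64.0 to 75.3 and 193 to 194, and DTA-1 replicates 2 and 3 held 8899 to 9695, 88.8 to 108 and 317 to 334. Whether its label is right was not tested, and every count below of genes higher or lower in every DTA-1 library rests on it. Calls are therefore also given without it, and the intervals only with it. Without it, 14911 genes were tested and 111 (0.744%) were called, of which 0 were members. With no limit on fold change, 1 of the 34 members then tested (Acsl4) and 1.7% of all genes passed an adjusted p of 0.05. At an unadjusted p under 0.05, 5 members were listed without that library, against 14.0% of all genes. Of these Acsl4, Fasn, Scd2 and Acot7 were higher in DTA-1, against 7.5% of all genes, and Mgll was lower, against 6.53%.

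All 15 ILC2 markers examined were detected and tested, and the adipocyte markers were at or near 0. The 11 adipocyte markers summed to 0 to 0.482 normalized counts per library, and Cidec, Lep, Cfd, Adrb3, Car3 and Pck1 were at 0 in every library. The fibroblast markers, 10 genes with Dpt at 0 throughout, summed to 2.82 to 9.67 with isotype antibody against 0.288 to 4.20 with DTA-1. The 10 macrophage markers, with C1qb at 0 throughout, summed to 6.44 to 12.3 and 9.19 to 12.2. The 8 T cell markers, with Cd8a at 0 throughout, summed to 43.5 to 57.1 and 49.4 to 53.4, of which Cd3g alone gave 36.2 to 48.6 and 41.5 to 45.3, while Cd3e stayed between 2.34 and 3.72. The 6 endothelial markers, with Cdh5 and Emcn at 0 throughout, summed to 18.4 to 24.4 and 10.6 to 18.3. Pecam1 alone gave nearly all of this, with 10.4 to 24.4, and Kdr, Tek and Vwf were at 0 in every isotype control library and at most 0.596 in DTA-1.

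Per kilobase of transcript, the 34 members spanned more than 3 orders of magnitude. In isotype control, Acot7, a cytosolic thioesterase that splits acyl-CoA back to free fatty acid, had the highest level at 234 ± 11 normalized counts per kb (SD, n = 3), in the 97.5th percentile of the tested protein-coding genes over all 6 libraries, and its libraries did not overlap those of the next gene. Acadvl followed at 111 ± 3.31, then Elovl5 at 103 ± 5.15, Acadl at 100.5 ± 3.8 and Acly at 86.4 ± 9.54, and each of these overlapped its neighbour in the order. The lowest 4 were Acaca at 0.755 ± 0.148, Lpl at 0.491 ± 0.456, Acacb at 0.175 ± 0.149 and Scd1 at 0.0586 ± 0.0528, which likewise overlapped from one to the next. Both carboxylases of malonyl-CoA synthesis, Acaca and Acacb, were thus among the lowest 4 per kb. The order depends on the transcript lengths used, 9513 bases for Acaca, 8788 for Acacb and 1505 for Acot7. Before division by length, the isotype control mean of Fads2 (4.01 normalized counts) lay below that of Acaca (7.18). Evenness of coverage along transcripts was not examined.

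**Figure D2:**
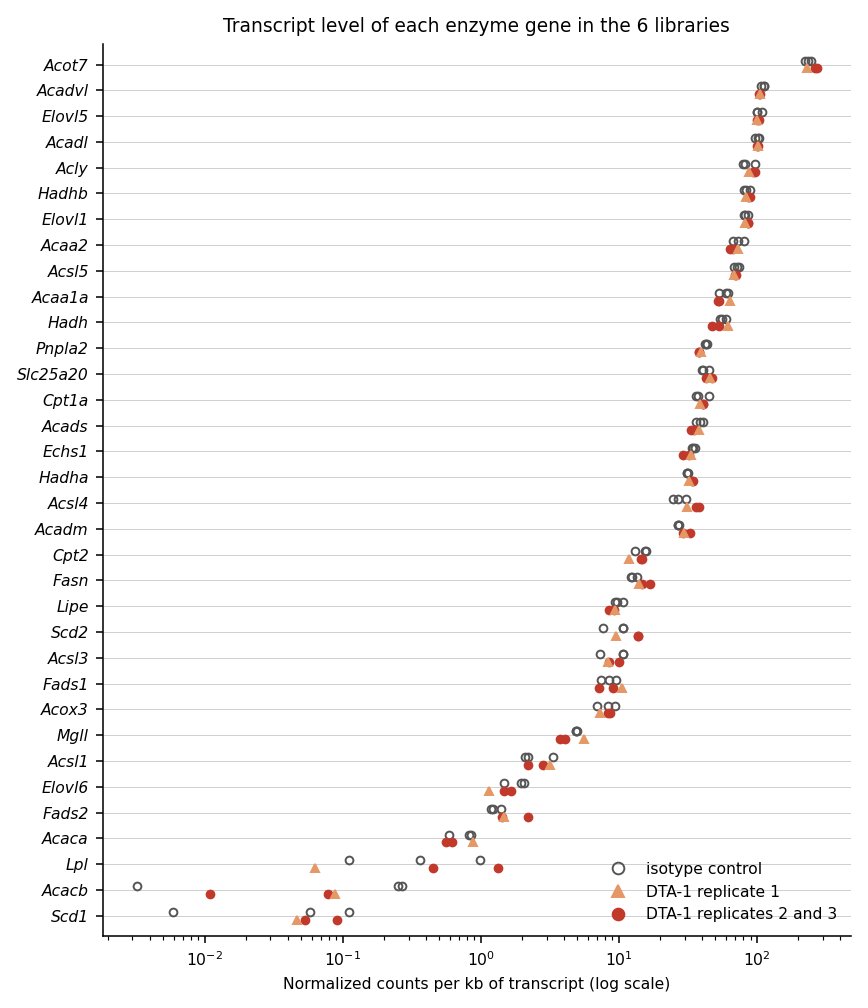
Level of each of the 34 genes in normalized counts per kb of transcript (log x axis), in the order of the isotype control mean. Open circles are isotype control libraries, triangles DTA-1 replicate 1 and filled circles DTA-1 replicates 2 and 3; the 6 libraries of a gene lie close together from Acot7 down to Mgll and spread widely for Lpl, Acacb and Scd1.

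No member of the carnitine shuttle passed the test, and the intervals of all 3 lay within 1.5-fold. Cpt1a encodes the liver-type carnitine palmitoyltransferase 1 of the outer mitochondrial membrane, the rate-controlling step of entry. It had 163, 194 and 156 normalized counts with isotype antibody against 167, 175 and 176 with DTA-1. The groups overlapped, and the highest and lowest libraries were both isotype controls. Its log2 fold change was 0.01 (SE 0.08, edgeR adjusted p = 0.982), with a 95% interval from 0.888-fold to 1.15-fold. Cpt1a was the most abundant CPT1 gene in these cells: per kb of transcript it stood at 39.6 normalized counts in isotype control, compared with 0.840 for the brain-type gene Cpt1c and 0.0196 for the muscle-type gene Cpt1b, which did not pass the filter. The comparison with these genes, which are not among the 34, was chosen after the values were seen.

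Cpt2, which rebuilds acyl-CoA on the inner side, had 37.3, 36.7 and 31.3 normalized counts with isotype antibody against 28.2, 34.5 and 34.8 with DTA-1. Its lowest library was DTA-1 replicate 1, and the groups overlapped (log2 fold change -0.11, SE 0.12, edgeR adjusted p = 0.870; -0.02 without that library). Slc25a20, the carnitine-acylcarnitine translocase between the 2 enzymes, had 80.2, 72.1 and 71.0 with isotype antibody against 82.1, 84.1 and 76.7 with DTA-1. Only isotype control replicate 1 reached into the DTA-1 range (log2 fold change 0.12, SE 0.08, edgeR adjusted p = 0.769).

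The 9 enzymes of mitochondrial beta-oxidation were abundant and divided between the directions, 4 higher and 5 lower, with a median log2 fold change of -0.06. In this group every interval lay within 1.5-fold. Of the acyl-CoA dehydrogenases, which open each round and differ in the chain length they accept, the medium-chain enzyme Acadm had 55.1, 55.3 and 56.2 normalized counts with isotype antibody against 60.4, 67.0 and 60.1 with DTA-1. Every DTA-1 library was above every isotype control library (log2 fold change 0.17, SE 0.08, edgeR adjusted p = 0.702). The short-chain enzyme Acads had the opposite sign, at 72.2 ± 4.33 (SD, n = 3) with isotype antibody against 66.3 ± 4.56 with DTA-1 and with overlapping groups (log2 fold change -0.12, SE 0.08, edgeR adjusted p = 0.782). Per kb, Acads therefore stood 1.34 to 1.52 times above Acadm with isotype antibody against 1.02 to 1.29 times above it with DTA-1. This follows from the opposite signs and is not a separate result, and no share over other gene pairs was computed.

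Of the 14 oxidation members, the long-chain dehydrogenases had the highest levels per kb in isotype control. Acadl had 192.5 ± 7.28 normalized counts with isotype antibody against 194 ± 1.73 with DTA-1, a log2 fold change of 0.01. Acadvl, the very-long-chain enzyme, had 240.4 ± 7.18 and 227 ± 2.68, with every DTA-1 library below every isotype control library (log2 fold change -0.08, SE 0.06, edgeR adjusted p = 0.794). On the opposite strand, Dvl2 covers 42.9% of the exon bases of Acadvl. Whether strand was used in counting is not given in the sources used here, so the level of Acadvl is uncertain, although Dvl2 had a mean of 823 counts against 7801 for Acadvl.

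The trifunctional protein, which carries out the later steps for long chains, is made of products of the neighbouring genes Hadha and Hadhb. Hadha had 126, 128 and 124 normalized counts with isotype antibody against 129, 139 and 136 with DTA-1. The DTA-1 libraries were all higher, by little in the first (log2 fold change 0.10, SE 0.06, edgeR adjusted p = 0.771). Its partner Hadhb had 174 ± 9.6 and 177 ± 6.2 (log2 fold change 0.03). The short-chain hydratase Echs1 had 55.7, 53.6 and 53.0 with isotype antibody against 51.9, 50.6 and 45.8 with DTA-1. Here the DTA-1 libraries were all lower (log2 fold change -0.13, SE 0.09, edgeR adjusted p = 0.764). Hadh, the short-chain hydroxyacyl-CoA dehydrogenase, had 101.5 ± 5.24 against 97.3 ± 13.1 (log2 fold change -0.06, SE 0.10). Acaa2, the mitochondrial thiolase, had 112 ± 10.5 against 103 ± 6.32 (log2 fold change -0.12, SE 0.08), and both had overlapping groups.

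Both peroxisomal members were close to level. Acaa1a, a peroxisomal thiolase, had 102.5 ± 8.58 normalized counts with isotype antibody against 99.2 ± 11.5 with DTA-1. It shares exon bases with Myd88 on the opposite strand (6.57% of its own), a gene of similar count. Acox3, a branched-chain acyl-CoA oxidase, had 32.8 ± 4.71 and 32.3 ± 2.97.

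In total 5 of the 33 members had every DTA-1 library above every isotype control library (Acadm, Hadha, Acsl4, Fasn and Fads2), compared with 5.26% of all tested genes. In the other direction 3 did (Acadvl, Echs1 and Pnpla2), compared with 6.03%. All 8 had a log2 fold change between -0.15 and 0.42. Without DTA-1 replicate 1 the counts were 7 above, compared with 15.5% of the same genes, and 7 below, compared with 16.1%.

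**Figure D3:**
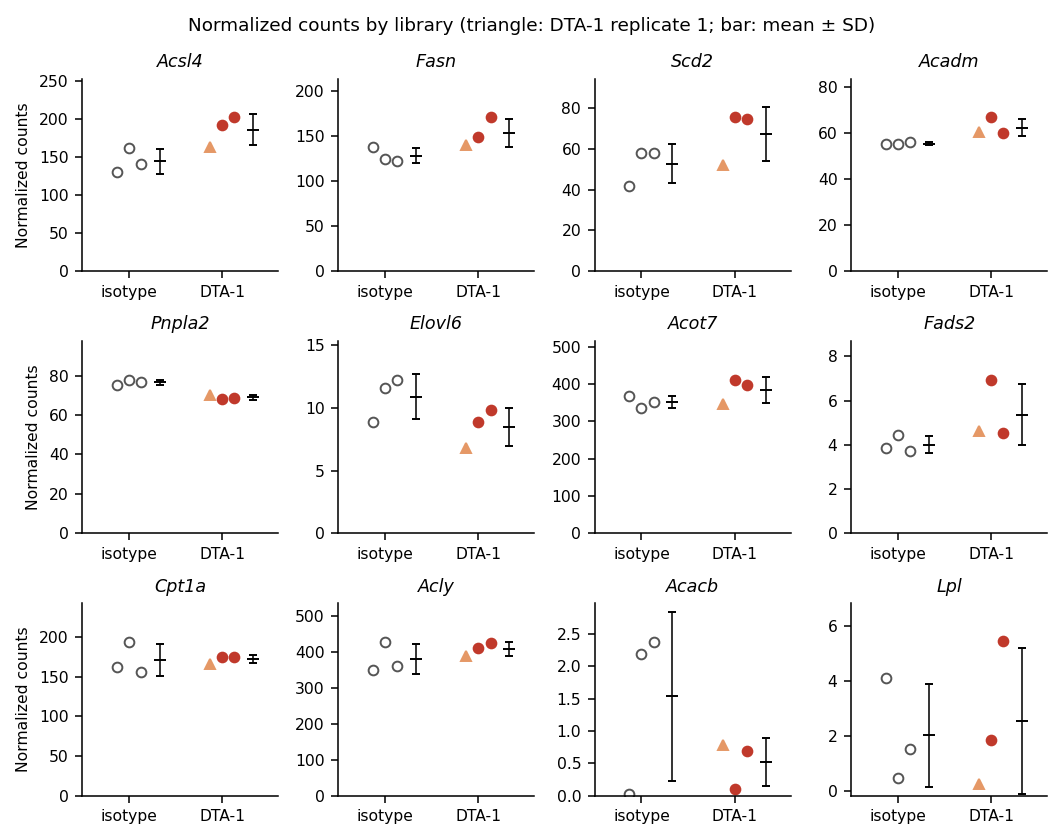
Normalized counts (y axis, linear) of 12 of the enzyme genes in each library. Open circles are isotype control, triangles DTA-1 replicate 1, filled circles DTA-1 replicates 2 and 3, and bars the mean ± SD (n = 3); Acsl4 and Fasn are higher in every DTA-1 library, Pnpla2 is lower in every one, and Acacb and Lpl spread over most of their range within a group.

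Of the acyl-CoA synthetases, Acsl4 had the smallest p of all members. Acsl4 activates long-chain fatty acids with a preference for arachidonic acid and other polyunsaturated chains, and its gene lies on the minus strand at chrX:142317993-142390535 in build mm10. It had 130.0, 163 and 142 normalized counts with isotype antibody against 164, 193 and 203 with DTA-1. The groups did not overlap, but DTA-1 replicate 1 exceeded isotype control replicate 2 by little. This was a 1.29-fold difference (log2 fold change 0.36, SE 0.10, unadjusted p = 0.00354, edgeR adjusted p = 0.627), with a 95% interval from 1.11-fold to 1.5-fold. Leaving out DTA-1 replicate 1 gave 0.45 with an adjusted p of 0.0454, the lowest over the alternatives, which ran up to 0.999, and the estimate stayed under 1.5-fold. For Fasn, Scd2, Acot7 and Mgll, too, the adjusted p without that library, given with each gene, was the lowest over the alternatives.

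The estimates of the other long-chain synthetases were closer to 0, and their difference from that of Acsl4 was not tested. Acsl5, the most abundant of them, had 303 ± 14.9 normalized counts with isotype antibody against 294 ± 4.39 with DTA-1 (log2 fold change -0.04, SE 0.06). Acsl3 had 37.8 ± 7.67 against 35.4 ± 3.94 (log2 fold change -0.10, SE 0.15), and Acsl1 had 9.95 ± 2.73 against 10.6 ± 1.90 (log2 fold change 0.09, SE 0.22, and -0.02 without DTA-1 replicate 1). Per kb, Acsl5 stood 2.43 to 2.76 times above Acsl4 with isotype antibody against 1.83 to 2.20 times above it with DTA-1. This ratio follows from the estimates of both genes, of which Acsl4 had the smallest p of all members, and is not a separate result. Acsl5 shares 8.31% of its exon bases with Zdhhc6 on the other strand, Acsl3 shares 5.6% with Utp14b on the same strand, and Acsl1 shares 9.91% with Gm45244, which had 2.2 counts on average.

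Acot7, which acts against the synthetases, had 369, 335 and 352 normalized counts with isotype antibody against 346, 412 and 397 with DTA-1. DTA-1 replicate 1 fell among the isotype controls, and replicates 2 and 3 were above them all. The log2 fold change was 0.13 (SE 0.08, edgeR adjusted p = 0.742), and 0.20 without replicate 1 (adjusted p = 0.164).

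The promoters of Acsl4, Fasn and Pnpla2 are shown because Acsl4 and Fasn had the smallest p of the members that were higher in every DTA-1 library, and Pnpla2 had the smallest p of those that were lower in every one. Each run is the 250 bases before the RefSeq start on build GRCm38.p6, read 5′ to 3′ on the strand of the gene. Capitals mark matches, on either strand, to the CCAAT box (CCAAT) or to the 10-base NF-kB consensus. The Acsl4 window lies at chrX:142390536-142390785 (minus strand), the Fasn window at chr11:120824548-120824797 (minus strand) and the Pnpla2 window at chr7:141454938-141455187 (plus strand).
Acsl4: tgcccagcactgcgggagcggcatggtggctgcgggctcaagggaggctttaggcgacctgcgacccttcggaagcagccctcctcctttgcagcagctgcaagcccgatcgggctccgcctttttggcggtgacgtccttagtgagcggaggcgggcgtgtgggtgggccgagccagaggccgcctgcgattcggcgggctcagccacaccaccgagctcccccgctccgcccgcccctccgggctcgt
Fasn: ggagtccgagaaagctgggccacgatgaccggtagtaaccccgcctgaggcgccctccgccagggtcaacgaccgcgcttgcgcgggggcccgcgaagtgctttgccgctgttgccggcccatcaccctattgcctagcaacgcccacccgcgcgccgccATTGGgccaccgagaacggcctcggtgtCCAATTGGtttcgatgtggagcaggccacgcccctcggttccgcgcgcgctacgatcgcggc
Pnpla2: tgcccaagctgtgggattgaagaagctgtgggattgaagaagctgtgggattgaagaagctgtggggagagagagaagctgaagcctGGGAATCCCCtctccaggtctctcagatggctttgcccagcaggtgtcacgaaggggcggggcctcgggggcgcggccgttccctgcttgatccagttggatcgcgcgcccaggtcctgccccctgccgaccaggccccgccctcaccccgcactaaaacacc

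The Fasn window held 3 CCAAT matches, of which the last pair overlap, and no match to the sterol regulatory element in the form TCACNCCAC. The Pnpla2 window held 1 stretch that matches the NF-kB consensus on both strands, and the Acsl4 window held none of the 3 motifs. Of the 34 members 29 had RefSeq promoters, with 33 windows among them. CCAAT occurred in 30.3% of the member windows and 33.8% of all 32851 windows, the NF-kB consensus in 9.09% and 7.25%, and the sterol regulatory element in 3.03% (Acsl1 alone) and 1.05%. These are matches of letters and not measured binding.

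Among the enzymes of de novo synthesis, Fasn, the fatty acid synthase, was higher in every DTA-1 library but did not pass the test, and the groups overlapped for Acly and for both carboxylases. Fasn lies on the minus strand at chr11:120805846-120824547. It had 137, 124 and 122 normalized counts with isotype antibody against 140.3, 149 and 171 with DTA-1. Every DTA-1 library was above every isotype control, with DTA-1 replicate 1 just above isotype control replicate 1. This was a 1.2-fold difference (log2 fold change 0.26, SE 0.08, edgeR adjusted p = 0.627) with a 95% interval from 1.05-fold to 1.36-fold. Without DTA-1 replicate 1 it was 0.32 (adjusted p = 0.106).

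Acly, the ATP-citrate lyase, had 350.1, 427 and 361 normalized counts with isotype antibody against 387, 411 and 425 with DTA-1. The highest library was an isotype control (log2 fold change 0.10, SE 0.08, edgeR adjusted p = 0.820). Per kb it stood 114 times above Acaca, the cytosolic acetyl-CoA carboxylase whose product commits carbon to fatty acid synthesis. Acaca had 5.57, 7.84 and 8.14 with isotype antibody against 8.31, 5.89 and 5.36 with DTA-1. DTA-1 replicate 1 was the highest of all 6 libraries and replicates 2 and 3 were low, so that the log2 fold change was -0.14 (SE 0.23, edgeR adjusted p = 0.933) with that library and -0.35 without it.

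Acacb, the carboxylase at the outer mitochondrial membrane whose malonyl-CoA inhibits CPT1, had a low level that differed widely between libraries. It had 1, 77 and 84 counts with isotype antibody against 24, 3 and 22 with DTA-1. The 2 high isotype control libraries and the single count in the third span the DTA-1 values, and the log2 fold change of -1.55 had an SE of 1.01 (edgeR adjusted p = 0.764). No direction could be read from libraries that spread this widely within a group.

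Desaturases and elongases held 4 members higher and 2 lower, with a median log2 fold change of 0.05. Scd2, a stearoyl-CoA desaturase that introduces the first double bond, had 41.7, 58.1 and 58.2 normalized counts with isotype antibody against 52.1, 75.5 and 74.8 with DTA-1. DTA-1 replicates 2 and 3 were above all the others, and isotype control replicate 1 was the lowest. The log2 fold change was 0.36 (SE 0.16, edgeR adjusted p = 0.681), and 0.51 without DTA-1 replicate 1 (adjusted p = 0.119). Its paralog Scd1, the main form of liver and fat, did not pass the filter, at 10, 1 and 19 counts with isotype antibody against 7, 8 and 14 with DTA-1. Per kb Scd2 stood 95.7 to 1810 times above Scd1 in single isotype control libraries, a ratio set by the few counts of Scd1. Reads that the paralogs share could have been divided between them by the estimation of counts.

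Elovl6, which lengthens palmitate, had 8.85, 11.6 and 12.3 normalized counts with isotype antibody against 6.83, 8.84 and 9.79 with DTA-1, with overlapping groups (log2 fold change -0.36, SE 0.20, edgeR adjusted p = 0.738). Without DTA-1 replicate 1, its lowest library, the value was -0.23. The more abundant elongases had estimates near 0. Elovl5, for polyunsaturated chains, had 287 ± 14.3 against 282 ± 5.63 (log2 fold change -0.02, SE 0.06). Elovl1, for saturated very long chains, had 150.3 ± 4.83 against 153 ± 4.40 (log2 fold change 0.03, SE 0.06), with a sign that turned when total counts set the scale. Per kb Elovl5 stood 56.2 times above Elovl6.

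Fads2, the delta-6 desaturase of polyunsaturated fatty acids, had 3.84, 4.45 and 3.74 normalized counts with isotype antibody against 4.63, 6.95 and 4.52 with DTA-1. The groups did not overlap, by a narrow margin between isotype control replicate 2 and DTA-1 replicate 3 (log2 fold change 0.42, SE 0.24, edgeR adjusted p = 0.742). Fads1, the delta-5 desaturase, had 29.5 ± 3.74 with isotype antibody against 30.9 ± 5.76 with DTA-1, a log2 fold change of 0.07 (SE 0.15).

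Of the lipases, the 3 enzymes that break down intracellular triglyceride in sequence had negative estimates, and none passed the test. Pnpla2, the adipose triglyceride lipase that starts the sequence, lies on the plus strand at chr7:141455198-141460743. It had 75.2, 78.0 and 76.5 normalized counts with isotype antibody against 70.4, 68.0 and 68.8 with DTA-1. Every DTA-1 library was below every isotype control (log2 fold change -0.15, SE 0.07, edgeR adjusted p = 0.702), a value that stayed between -0.16 and -0.13 whichever library was left out. Lipe, the hormone-sensitive lipase, had 35.9 ± 2.5 and 32.6 ± 1.88 (log2 fold change -0.14, SE 0.10, edgeR adjusted p = 0.794), and shares 15.6% of its exon bases with 4732471J01Rik, a gene of low count on the opposite strand. Mgll, the monoacylglycerol lipase, had 19.1 ± 0.173 and 17.3 ± 3.85 (log2 fold change -0.14, SE 0.16, edgeR adjusted p = 0.884). DTA-1 replicate 1 was its highest library at 21.7, with 14.6 and 15.7 in replicates 2 and 3, and without it the log2 fold change was -0.34 (adjusted p = 0.283). These lipases are known from adipocytes, whose defining markers were at or near 0 in these libraries, and the cell source of the lipase reads was not tested.

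Lpl, the lipoprotein lipase that acts on circulating triglyceride, had 4.10, 0.456 and 1.5 normalized counts with isotype antibody against 0.259, 1.86 and 5.46 with DTA-1. Its values spread widely within each group (log2 fold change 0.32, SE 0.92, edgeR adjusted p = 0.960), and no difference was detectable. The fibroblast marker sums in the same order of libraries were 6.81, 2.82 and 9.67, then 0.873, 0.288 and 4.20, and their part in the level of Lpl was not tested.

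Oxidation and synthesis were also set side by side in each library. The 14 oxidation members (shuttle, mitochondrial and peroxisomal) summed to 1510 to 1587 normalized counts with isotype antibody against 1514 to 1544 with DTA-1. The 11 synthesis members (de novo, desaturation and elongation) summed to 1008 to 1116 and 1063 to 1166. Both sums overlapped between the groups. The median shift of the 33 members from the isotype control mean was -0.01 to -0.001 on the log2 scale for libraries of the isotype control. It was -0.02, -0.02 and 0.01 for DTA-1 replicates 1 to 3.

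**Figure D4:**
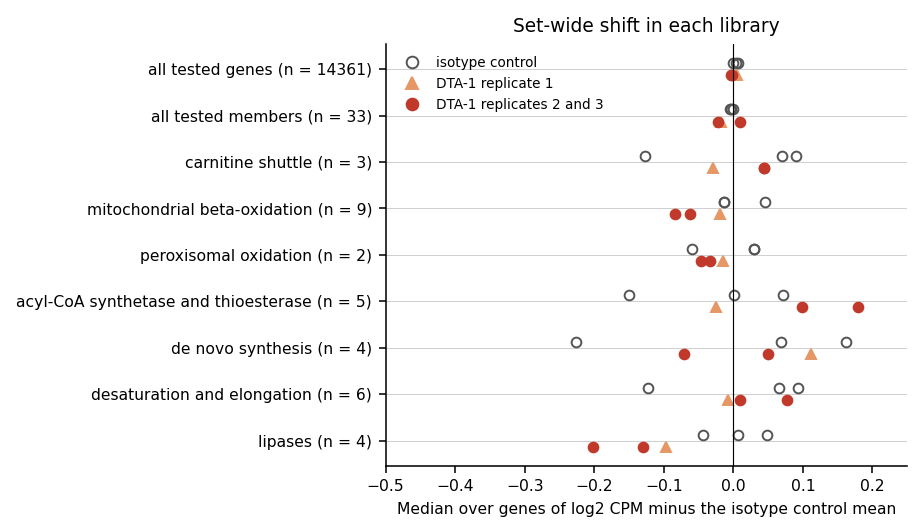
Median over genes of the log2 CPM in a library minus the isotype control mean (x axis), for all tested genes, all tested members and each role. Open circles are isotype control, triangles DTA-1 replicate 1 and filled circles DTA-1 replicates 2 and 3. The 33 members as a whole stay within 0.03 of 0 in every library. The 4 lipases and, narrowly, the 9 mitochondrial beta-oxidation genes lie below their isotype controls in all 3 DTA-1 libraries. Of these genes, 1 lipase and 4 of beta-oxidation had positive estimates.

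A further 121 genes of fatty acid metabolism were examined, of which 120 were in the table and 91 were tested. Of these 52 (57.1%) were higher and 39 lower, against 48.1% higher over all tested genes, with a median log2 fold change of 0.01. An unadjusted p under 0.05 was reached by 5, at a background of 7.22% of all tested genes. Every DTA-1 library was above every isotype control library for 4 of the 91, against 5.26% of all tested genes. The reverse held for 5, against 6.03%. The genes named below are the 3 with the smallest p of each list, with Ppara, Ppargc1a and their relatives in addition. None passed the adjusted threshold with all 6 libraries.

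Among 28 other oxidation genes, 13 were higher and 15 lower. Decr1, a reductase needed to oxidise unsaturated chains, had a log2 fold change of -0.37 (SE 0.15), and -0.56 without DTA-1 replicate 1 (edgeR adjusted p = 0.0643, with up to 0.999 over the other alternatives). Cpt1c had -0.89 (SE 0.39) at 1.2 to 3.18 normalized counts. Mlycd, which degrades malonyl-CoA, had -0.17 (SE 0.09), with every DTA-1 library lower. Of 13 activation and thioesterase genes, 8 were higher and 5 lower. Slc27a4, a fatty acid transport protein with synthetase activity, had 24.6, 21.4 and 24.4 normalized counts with isotype antibody against 28.0, 29.7 and 32.6 with DTA-1, all higher (log2 fold change 0.36, SE 0.11, edgeR adjusted p = 0.627). Acss1 and Acsf2 had log2 fold changes of -0.47 and -0.30 with overlapping groups.

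Of 16 further synthesis genes, 9 were higher and 7 lower. Me1, the malic enzyme that supplies NADPH for fatty acid synthesis, had 43.2, 41.9 and 40.3 normalized counts with isotype antibody against 51.2, 49.3 and 56.3 with DTA-1. Every DTA-1 library was above every isotype control library, including replicate 1 by a clear margin (log2 fold change 0.32, SE 0.09, edgeR adjusted p = 0.627). Hsd17b12 had 0.16 with overlapping groups, and Mcat had -0.22 with every DTA-1 library lower. Of 16 lipolysis and droplet genes, 8 were higher and 8 lower. Ddhd2, a phospholipase and triglyceride hydrolase, and Plin3, a lipid droplet coat protein, were lower in every DTA-1 library (log2 fold changes of -0.33, SE 0.12, and -0.15, SE 0.07), and Gpat4 had 0.10.

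Of 18 regulators of lipid metabolism, 14 (77.8%) were higher and 4 lower, with a median log2 fold change of 0.09. Over all tested genes 48.1% were higher, with a median of -0.01. Of the 18 regulators, 0 had an unadjusted p under 0.05 (edgeR). Insig1, which retains the SREBP precursor in the endoplasmic reticulum and is itself a sterol-responsive gene, had 90.5, 97.1 and 91.7 normalized counts with isotype antibody against 88.0, 126 and 119 with DTA-1. DTA-1 replicate 1 was the lowest library and replicates 2 and 3 the highest. The log2 fold change was 0.25 (SE 0.11, edgeR adjusted p = 0.692), and 0.39 without replicate 1 (adjusted p = 0.0287, with up to 0.999 over the other alternatives). Insig2 had 0.20 (SE 0.10), and Prkaa2, with 0 to 25 counts per library, had 2.13 (SE 1.10). Ppara and Ppargc1a, a receptor and a coactivator that drive oxidation genes in liver and muscle, were at 0 in every library, which allows up to 0.0981 normalized counts. Their relatives Pparg, Ppard and Ppargc1b had isotype control means of 161, 1.51 and 4.49 normalized counts. These genes were named outside the rule of the smallest p.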

How the data were processed

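Expected counts per gene, estimated by the authors and deposited without normalization, were used as the only measurement (6 libraries, 53278 genes, no sample column left out). The submitters' processing notes name bcl2fastq 2.17.1.14, STAR 2.5.3a, Partek and build mm10; the annotation release, counting options and use of strand are not given in the sources used here. Expected counts assign reads shared by similar genes by estimation, so that paralogs can exchange reads. Total counts per library were 30569351 to 35131329. The table's gene ends lie 1 base past those of GENCODE M21 and were lowered by 1.

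After rounding, edgeR 4.0.16 under R 4.3.3 was used to filter low genes (filterByExpr), scale by TMM and run a robust quasi-likelihood F test. This left 14361 genes with a common dispersion of 0.0256. Each standard error was the size of the log2 fold change divided by the square root of F; intervals are at 95%. The limit that a 0 allows was set at 3 counts, which covers counting error only. Alternatives were DESeq2 1.42.0, its size factors, total counts, no filter, a replicate block, other thresholds and leaving out each library. On simulated data with 200 genes changed 2-fold, run on 14361 genes, 185 (92.5%) were recovered with 12 false calls. The changed genes had a mean above 1 normalized count, every gene had the common dispersion, and no library stood apart from its group. Recovery was scored by adjusted p without the limit on fold change. The share recovered checks the code and does not measure power in these data. An exact permutation test of 3 libraries against 3 cannot reach p = 0.05 and was not run. Lengths were those of the longest principal GENCODE M21 transcript, and promoters came from RefSeq (GRCm38.p6). Python 3.11.15, pandas 2.3.3 and matplotlib 3.10.9 made tables and plots.

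All 34 members and the other lists were chosen with earlier results of these data known. Values in every library were given for the 12 members with the smallest p, for de novo synthesis and the carnitine shuttle, and for members removed by the filter. Of each other list the 3 genes with the smallest p were named, with Ppara, Ppargc1a and their relatives in addition.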

Additional observations from a re-analysis of the deposited data

How the results depend on the processing

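The count of members called was 0 with every alternative that kept both limits of the call, and also at an unadjusted p, and the whole table had 2 calls with no filter on low counts, 25 with DESeq2, 337 at an unadjusted p with the 1.5-fold limit, and 0 to 111 when one library was left out, the 111 without DTA-1 replicate 1. An alternative chosen after seeing the data, leaving out DTA-1 replicate 1 with no limit on fold change, gave 1 member (Acsl4) and 253 genes. The median log2 fold change of the members was -0.0567 with total counts, 0.0003 with DESeq2 and -0.0178 to 0.0030 when one library was left out. Over all genes fitted it was -0.0443 with total counts, -0.0111 with DESeq2 and -0.015 to -0.0023 when one library was left out. In the main fit that median was -0.0078, so the value for all genes moved with total counts as well. The cause of the other differences was not tested. Of 363 member values under alternatives, 341 kept their direction. With total counts Cpt1a turned to -0.0238, Acadl to -0.0241, Hadhb to -0.0112 and Elovl1 to -0.0071. Leaving out one library turned the sign of members near 0 or of wide spread: Cpt1a (-0.0496 to 0.12), Acadl (-0.0178 to 0.0391), Hadhb (-0.0116 to 0.0723), Hadh (-0.17 to 0.0261), Acaa1a (-0.15 to 0.0047), Acox3 (-0.12 to 0.0847), Acsl1 (-0.0234 to 0.34), Elovl5 (-0.0461 to 0.0179), Fads1 (-0.0655 to 0.21) and Lpl (-0.93 to 1.37). With the replicate number as a block 1 gene and 0 members were called, with a median of -0.0132 for the members. Same-numbered libraries of the 2 groups had correlations of their deviations of -0.0069, -0.00285 and 0.0152, and differently numbered ones -0.0145 to 0.0161. No pairing was visible, but DTA-1 replicate 1 stood apart from its group, so these values cannot decide whether the numbers paired the samples. Leaving out DTA-1 replicate 1, also chosen after seeing the data for this count, raised the members below every isotype control library from 3 to 7. The share of all tested genes rose from 6.03% to 16.1%. Members above every isotype control library went from 5 to 7, and the share of all tested genes from 5.26% to 15.5%. Scd1, at 1 to 19 counts per library, was too low to test, and Acacb and Lpl spread between libraries of near-equal depth.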
